A study of Mus musculus with 62 samples.

Results

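The 35 genes described here encode the factors, inhibitors and receptors of blood clotting and fibrinolysis, together with the enzymes of the vitamin K cycle. They were taken by symbol from a liver expression table of 47643 gene symbols, and all 35 were found. The table holds 62 livers of female mice that were 2 months old at injection. The study followed melanoma cachexia, the wasting that accompanies some tumours, by comparing livers 2, 4, 6 and 8 weeks after injection. CAC livers came from mice given cachectic melanoma cells, NCAC livers from mice given non-cachectic melanoma cells, and Con livers from mock-injected mice. Each group held 5 livers at each week, except for 7 CAC livers at 8 weeks. The strain was recorded as C57BL6/J for every liver, whereas the design text names NCI Ath/nude mice, so the immune status of the hosts cannot be stated. The extraction notes also mention an LLC cell injection, which matches none of these groups. The replicates are described as biological, and each was taken as 1 animal.

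Blood clots when tissue factor and factor VII start a chain of protease activations that ends in thrombin, which turns fibrinogen into fibrin. The contact system of factor XII, prekallikrein and kininogen can start the same chain and releases the vasoactive peptide bradykinin. Antithrombin, the protein C system and the protein Z system restrain clotting, and plasmin made from plasminogen dissolves the clot. Hepatocytes secrete most of these proteins into plasma, while tissue factor, factor VIII, von Willebrand factor, thrombomodulin and the plasminogen activators are made mainly by other cells.

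Transcript levels are given in TPM, a transcript abundance scaled for transcript length and to the same total in every library. Read numbers were not given with these values, and no counting interval can be set on them. Summed over 9 hepatocyte markers such as Alb and Apoa1, the level ran between 105618 and 134616 TPM in CAC livers at 8 weeks, between 92244 and 131476 TPM in NCAC livers and between 110158 and 128232 TPM in Con livers, and none of the 9 was at 0. In 12 of the 62 libraries transcripts of another tissue were present, taken as at least 100 TPM of the pancreatic gene Ctrb1 or at least 10 TPM of the muscle gene Acta1. These were replicates 1 and 4 of CAC at 2 weeks, replicate 1 of CAC at 6 weeks, replicates 3, 4 and 5 of NCAC at 4 weeks, replicates 1 and 5 of NCAC at 8 weeks, replicates 4 and 5 of Con at 6 weeks and replicates 2 and 4 of Con at 8 weeks. At 8 weeks the 10 pancreatic markers summed to 4.03 to 14.9 TPM in CAC livers, where Cela3b, Prss2, Cel and Clps were at 0 in all 7, to 10.998 to 37.3 TPM in NCAC livers and to 18.2 to 6016 TPM in Con livers. Without the 12 libraries the 8-week calls of F7, F8, F9 and Vkorc1 against Con were lost, and those of Serpinf2 and Serpind1 were gained. In bulk liver, fewer cells of a type and less RNA per cell cannot be told apart.

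In CAC livers, 7 clotting and fibrinolysis genes were higher than in both NCAC and Con livers at 4, 6 and 8 weeks. They were the kininogens Kng1 and Kng2, the plasminogen binder Hrg, the fibrinolysis inhibitor Cpb2, plasminogen itself (Plg), the factor Xa inhibitor Serpina10 and the protein C cofactor Pros1. Some of their 4-week and 6-week calls were lost in alternative fits, as described below. Of all genes 1.3%, 5% and 5.87% were called higher than Con at 4, 6 and 8 weeks. Against NCAC the shares were 1.11%, 6.55% and 5.09%. The share of all genes called in every one of these comparisons was not counted. A smaller set, led by prekallikrein (Klkb1), Adamts13 and tissue factor (F3), was lower than in Con livers at 6 and 8 weeks, and of these Klkb1 and F3 were also lower than in NCAC livers at both weeks. In the fit of all groups together, the NCAC livers gave no call against Con in any of the 32 tested members at any week. Hardly any gene was called there, with 0% of all genes in each direction at 2, 4 and 6 weeks. At 8 weeks 0.0247% were higher and 0.156% lower.

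Differences were tested with limma on log2(TPM + 1), which understates the change of genes at a few TPM, and called at a Benjamini-Hochberg adjusted p under 0.05 over all 12160 genes tested. Of the 35 members 32 were tested, since F13a1, Plat and Plaur reached 1 TPM in only 1, 2 and 1 libraries. At 2 weeks no member was called in CAC against Con, where 0.00822% of all genes were called higher and 0% lower. An unadjusted p under 0.05 was found in 4 of the 32 members and in 1298 of all 12160 genes. At 4 weeks 8 members were called higher and 0 lower, against 1.3% and 0.609% of all genes. At 6 weeks 11 were higher and 5 lower, against 5% and 10.3% of all genes. At 8 weeks 11 were higher and 6 lower, against 5.87% and 35.3% of all genes, so the share of members called lower was below that of all genes. Among the 11 was Serpina5, which was tested only because CAC livers at 6 and 8 weeks reached 1 TPM, so it had to differ.

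Read against NCAC livers instead, CAC livers gave similar counts. At 2 weeks no member was called, as was true of all genes (0% in each direction). An unadjusted p under 0.05 was found in 4 of the 32 members and in 1770 of all 12160 genes. At 4 weeks 7 members were higher and 0 lower, where 1.11% and 0.156% of all genes were. At 6 weeks the counts were 10 higher and 3 lower, beside 6.55% and 5.54% of all genes. At 8 weeks they were 11 higher and 6 lower, beside 5.09% and 43.1% of all genes, and the 11 again include Serpina5, which had to differ. The median difference of the 32 tested members in CAC against Con was 0.06 at 4 weeks, 0.18 at 6 weeks and 0.03 at 8 weeks on the log2 scale, while the median of all genes was -0.05, -0.12 and -0.21. The members did not move as a block. Because the CAC livers are shared by both comparisons, the counts are given side by side and not as repeats of each other.

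Another description is how many members had groups that did not overlap, whether or not they were called. It was not stricter than the adjusted p, since at 2 weeks far more genes met it than were called. In CAC against Con at 2 weeks, 0 members lay wholly higher and 2 wholly lower (Vwf and Serpind1), where 2.08% and 4.91% of all genes did. At 4 weeks 7 lay wholly higher, the consistently higher genes, and 1 wholly lower (F13b), beside 1.64% and 1.93% of all genes. At 6 weeks 8 lay wholly higher, those 7 and Serpinf2, and 4 wholly lower (F5, Klkb1, F13b and Adamts13), beside 3.82% and 10% of all genes. At 8 weeks 7 lay wholly higher, the same genes as at 4 weeks, and Adamts13 wholly lower, beside 1.85% and 6.09% of all genes.

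In CAC against NCAC at 2 weeks, Plg and Serpinf2 lay wholly higher (2 members) and F5 wholly lower (1 member), where 2.95% and 4.16% of all genes did, and none of the 3 was called. At 4 weeks 8 lay wholly higher, the 7 genes and F7, and 0 wholly lower, beside 1.11% and 0.444% of all genes. At 6 weeks 10 lay wholly higher, namely the 7 genes with F8, Thbd and Serpinf2, and 3 wholly lower (F11, Klkb1 and F13b), beside 5.9% and 5.89% of all genes. At 8 weeks 6 lay wholly higher, the 7 genes without Hrg, and Klkb1 wholly lower, beside 1.47% and 14% of all genes.

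**Figure D1:**
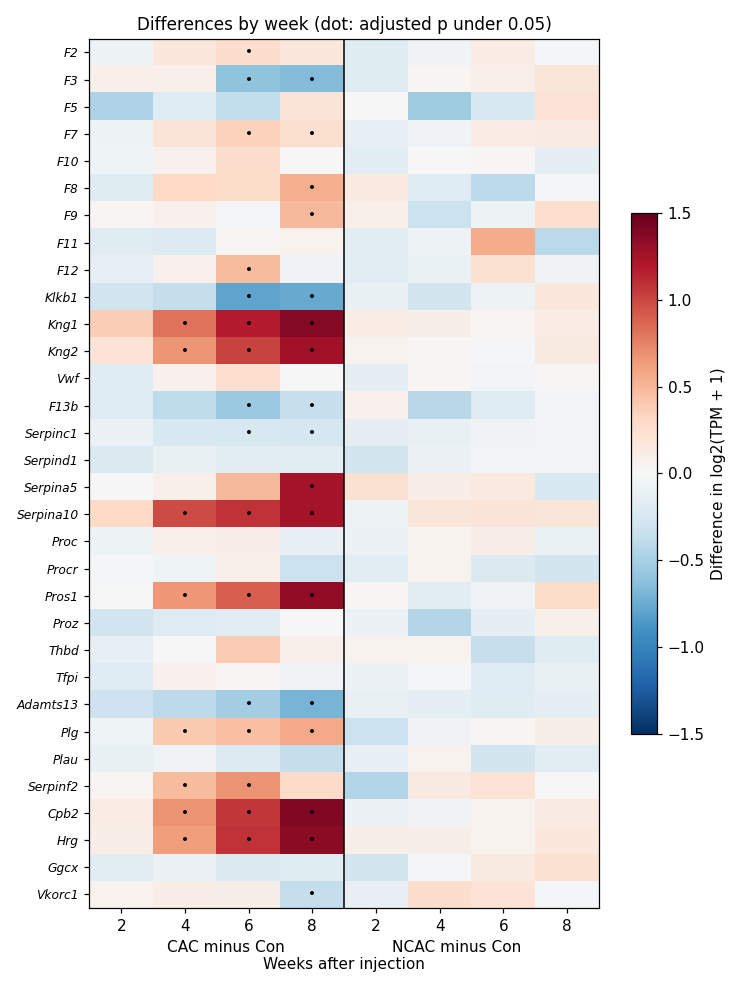
Differences in log2(TPM + 1) of the 32 tested clotting and fibrinolysis genes by week, CAC minus Con in the 4 columns on the left and NCAC minus Con in the 4 on the right, with a dot where the adjusted p was under 0.05. Red marks a higher level in the tumour-bearing group and blue a lower one; 7 rows turn steadily darker red from 4 weeks in CAC, and no cell on the right holds a dot.

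Within the contact and intrinsic pathway, both kininogens rose in CAC livers. Kng1, the carrier of the bradykinin sequence and a cofactor of contact activation, ran between 3109 and 5743 TPM with a median of 4257 TPM in CAC livers at 8 weeks, against 1579.9, 1722, 1728, 1887 and 2486 TPM in NCAC livers and 1580.0, 1592, 1695, 1825 and 1962 TPM in Con livers. All 7 CAC livers lay above every NCAC and Con liver. The difference from Con was 1.38 ± 0.14 on the log2 scale (SE; adjusted p = 2.56e-11), a 2.64-fold ratio of the group means. It placed Kng1 at rank 34 of all gene symbols by mean TPM in CAC livers at 8 weeks, against rank 70 in Con livers.

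The rise of Kng1 was already called at 4 weeks, when it averaged 2961 ± 733 TPM in CAC livers, 1756 ± 129 TPM in NCAC livers and 1652 ± 175 TPM in Con livers (SD, n = 5 each). The difference from Con was 0.81 at 4 weeks and 1.17 at 6 weeks (adjusted p = 0.000248 and 3.58e-08). Against NCAC the 4-week call (0.72, adjusted p = 0.00215) was lost under quantile normalization and without the other-tissue libraries, which leave 2 NCAC livers at that week. Kng2, the second mouse kininogen gene, stood at 415 to 674 TPM with a median of 539 TPM in CAC livers at 8 weeks, against 229, 240.0, 241, 252 and 303 TPM in NCAC livers and 199.5, 227, 237, 238 and 248.8 TPM in Con livers. The groups did not overlap here either, and Kng2 was 2.42-fold higher than in Con by group means (1.26 ± 0.11 on the log2 scale, adjusted p = 5.07e-13). Kng1 and Kng2 transcripts share sequence, since 27.7% of the 31-base windows of the longest Kng1 transcript occur in Kng2 and 28.9% the other way round. For 100-base windows the shares were 5.80% and 5.69%. Reads may therefore have been split between the 2 genes, to an extent that was not measured, and their separate levels are uncertain.

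Klkb1, which encodes the prekallikrein that cleaves kininogen, went the opposite way to its substrate. At 8 weeks it ran between 47.9 and 104 TPM with a median of 68.6 TPM in CAC livers, against 104, 125, 134, 135 and 145 TPM in NCAC livers and 69.3, 105, 125, 148 and 149 TPM in Con livers. The CAC livers lay below every NCAC liver, and 4 of the 7 lay below the lowest Con liver, which was replicate 2, a library with pancreatic and muscle transcripts. Klkb1 fell by 0.75 against Con (adjusted p = 0.000259) and by 0.91 against NCAC (adjusted p = 1.69e-05). At 6 weeks the fall was 0.79 against Con and 0.72 against NCAC (adjusted p = 0.00125 and 0.00343), with no overlap between CAC and either group.

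The other factors of this pathway gave weaker calls or none. F9, the vitamin K-dependent protease that works with factor VIII, ran between 167 and 228 TPM with a median of 195 TPM in CAC livers at 8 weeks, against 156, 168, 168, 170.0 and 172 TPM in NCAC livers and 85.5, 132, 162, 164 and 175 TPM in Con livers. Of the 7 CAC livers 6 lay above every other liver. F9 was higher than Con by 0.49 (adjusted p = 0.00101), but the lowest Con liver was again replicate 2, and without the other-tissue libraries the difference was 0.23 and not called, as was that from NCAC (0.23, adjusted p = 0.102). F8, the cofactor of factor IX, ran between 1.26 and 4.96 TPM with a median of 3.48 TPM in CAC livers at 8 weeks, against 1.13, 1.81, 1.85, 1.93 and 2.10 TPM in NCAC livers and 0.920, 1.501, 1.66, 1.83 and 3.46 TPM in Con livers. The groups overlapped, and the F8 calls against Con (0.54, adjusted p = 0.0171) and NCAC (0.55, adjusted p = 0.0127) were fragile: that against Con was lost without the other-tissue libraries, without CAC replicate 2 and without Con replicate 2, and that against NCAC without NCAC replicate 3. At 6 weeks F8 was called against NCAC alone (0.67, adjusted p = 0.0194), a call lost without CAC replicate 1 or 5 or NCAC replicate 4.

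F11 and F12, the zymogens of factors XI and XII, had no call against Con at 8 weeks (0.05 and -0.05 on the log2 scale). The F12 difference turned to 0.27 and was called under quantile normalization (adjusted p = 0.0153), and that of F11 turned to -0.11 without the other-tissue libraries. F12 was called only at 6 weeks against Con, at 337, 382, 397, 442 and 553 TPM in CAC livers against 259, 262, 288, 329 and 367 TPM in Con livers (0.48, adjusted p = 0.00509). F11 was lower in CAC than in NCAC at 6 weeks (-0.54, adjusted p = 0.0467) and higher at 8 weeks (0.45, adjusted p = 0.028), but the first call was lost without any of CAC or NCAC replicates 1, 2, 3 and 5 and the second without CAC replicate 4 (0.36), NCAC replicate 1 (0.29) or NCAC replicate 3 (0.33). At 6 weeks it lay at 41.0 to 67.5 TPM in CAC livers and 67.7 to 101 TPM in NCAC livers. Vwf, the carrier of factor VIII in plasma and an endothelial product, was low, at 0.472 to 1.24 TPM with a median of 0.923 TPM in CAC livers at 8 weeks, against 0.445, 0.541, 0.738, 1.56 and 1.63 TPM in NCAC livers and 0.664, 0.696, 0.868, 0.907 and 1.42 TPM in Con livers. These ranges overlapped throughout, and Vwf was not called at any week.

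**Figure D2:**
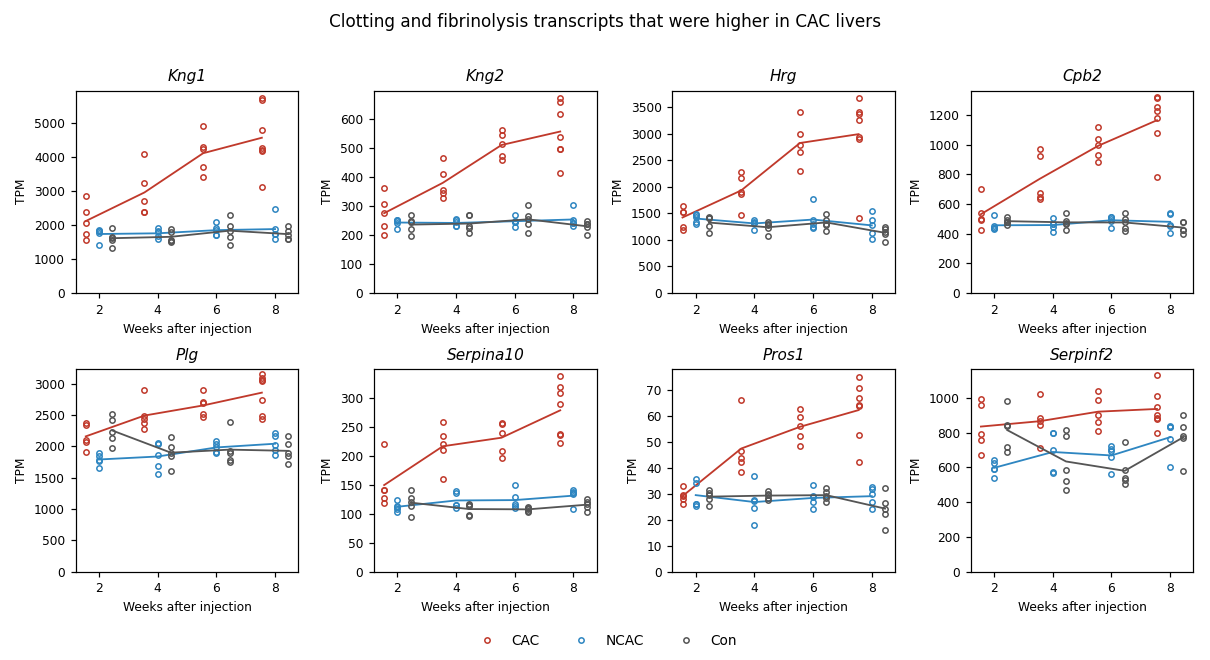
TPM of 8 genes by week after injection, with each circle 1 liver, the CAC livers left of the NCAC and Con livers, and lines through the group means. For Kng1, Kng2, Cpb2, Plg, Serpina10 and Pros1 all CAC livers at 8 weeks lie above all others, for Hrg 1 CAC liver at 1409 TPM lies among the NCAC livers, and for Serpinf2 the groups overlap at 8 weeks.

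Among the fibrinolysis genes, 4 of the 5 tested members were higher than Con at 4 and at 6 weeks, and 3 of them at 8 weeks. The shares of all genes called higher at 4, 6 and 8 weeks were 1.3%, 5% and 5.87%. Plg encodes plasminogen, the zymogen of the clot-dissolving protease plasmin, and was the most abundant of the 35 genes in Con livers at 2006 ± 245 TPM (SD, n = 20). At 8 weeks it ran between 2439 and 3146 TPM with a median of 3033 TPM in CAC livers, against 1862, 1944, 2020.2, 2165 and 2210.4 TPM in NCAC livers and 1718, 1837, 1887, 2034 and 2158 TPM in Con livers. All CAC livers lay above all others, though the rise was smaller than that of the other 6 genes, at 1.48-fold by group means (0.56 ± 0.08, adjusted p = 5.33e-07). The 4-week difference from Con (0.39, adjusted p = 0.00635) was no longer called without CAC replicate 2, and under quantile normalization the 4-week and 6-week calls of Plg were lost against both groups.

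Cpb2 encodes the carboxypeptidase also called TAFI, which trims lysines from fibrin and so slows plasminogen activation. In CAC livers at 8 weeks it stood at 783 to 1319.7 TPM with a median of 1225 TPM, against 407, 452, 461, 535 and 542 TPM in NCAC livers and 397, 425, 426, 476 and 479 TPM in Con livers. The lowest CAC liver exceeded the highest of the 10 others. Its difference from Con had the smallest adjusted p of the 35 genes at 8 weeks (1.39 ± 0.11, adjusted p = 7.32e-15), and by mean TPM it ranked 87 of all gene symbols in CAC livers, against 251 in Con livers. At 4 weeks Cpb2 already averaged 769 ± 163 TPM in CAC livers, 458 ± 35.1 TPM in NCAC livers and 476 ± 41.0 TPM in Con livers (SD, n = 5 each).

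Hrg encodes histidine-rich glycoprotein, a plasma protein that binds plasminogen, fibrinogen and heparin. It ran between 1409 and 3678 TPM with a median of 3253 TPM in CAC livers at 8 weeks, against 1021, 1137, 1282, 1370.0 and 1549 TPM in NCAC livers and 953, 1101, 1144, 1212 and 1250.3 TPM in Con livers. The low CAC value belongs to replicate 3, which lies inside the NCAC range; the other 6 CAC livers were at 2897 TPM or more. The difference was 1.35 ± 0.14 against Con and 1.19 ± 0.14 against NCAC (adjusted p = 3.58e-11 and 1.36e-09). At 4 weeks the Hrg call against NCAC (0.55, adjusted p = 0.0437) was weak, and was lost on leaving out any library of those groups except CAC replicate 5. CAC replicate 3 at 8 weeks was also the lowest CAC liver in 5 of the 7 consistently higher genes.

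Serpinf2, which encodes the plasmin inhibitor alpha2-antiplasmin, was called at the middle weeks and not at 8 weeks. At 6 weeks it stood at 810.4, 864, 901, 989 and 1043 TPM in CAC livers, against 561, 660.2, 697, 705 and 724 TPM in NCAC livers and 506, 525.6, 537, 586 and 749 TPM in Con livers. The CAC livers lay above all others, with a difference of 0.67 against Con (adjusted p = 0.00028) and of 0.46 against NCAC (adjusted p = 0.0152), a call lost without CAC replicate 1 or NCAC replicate 1. The 4-week call against Con (0.47, adjusted p = 0.048) was lost on leaving out any of 7 of the 10 libraries: CAC replicates 1, 2, 3 and 5 and Con replicates 3, 4 and 5. At 8 weeks the ranges overlapped, with 801 to 1132 TPM in CAC livers, 602 to 839.9 TPM in NCAC livers and 582 to 901 TPM in Con livers. That difference of 0.28 missed the threshold (adjusted p = 0.0631), and it passed under median-of-ratios rescaling (0.53), under quantile normalization (0.42) and without the other-tissue libraries (0.40). The plasminogen activators were scarce: Plau averaged 0.684 ± 0.979 TPM in CAC livers (SD, n = 7) and 0.990 ± 0.460 TPM in Con livers (SD, n = 5) at 8 weeks and had no call, while Plat and the urokinase receptor Plaur were not tested.

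The genes that rose together include neighbours. On the GRCm38 (mm10) assembly with GENCODE M21 annotation, Hrg (chr16:22951072-22961656, plus strand), Kng2 (chr16:22985854-23029482, minus strand) and Kng1 (chr16:23057865-23082078, plus strand) follow each other on chromosome 16 within 131 kb. Pros1 (chr16:62854307-62929346) lies far from them on the same chromosome, Cpb2 at chr14:75242287-75283555, Plg at chr17:12378608-12419385 and Serpina10 at chr12:103614786-103631444. F11 and Klkb1 are 4.66 kb apart on chromosome 8, and both were called lower than NCAC at 6 weeks. Against Con at 6 weeks Klkb1 was called lower (-0.79), while F11 was at 0.02 and not called, and the F11 call against NCAC was fragile. At 8 weeks Klkb1 was called lower than Con and F11 was not called against Con. F7, F10 and Proz follow each other on chromosome 8 between 13026034 and 13076026, and with TPM as deposited F7 was called against Con at 8 weeks while F10 and Proz were not.

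The promoters of the consistently higher genes are shown because genes that rise together may or may not share sequence at their starts. RefSeq promoter entries (GRCm38.p6, 250 bases before to 50 after each transcription start) were found for 27 of the 35 members and for 4 of the 7, and the promoter of the lower gene Klkb1 is added for contrast. Each is printed 5′ to 3′ on its gene's strand, and capitals mark matches, on either strand, to the C/EBP pattern TTNNGNAA, the STAT3 pattern TTCNNGGAA or the IL-6 response element CTGGGAA, none of which overlap here. The Kng2 entry is chr16:23029052-23029351 (minus strand), that of Pros1 chr16:62854057-62854356 (plus), that of Cpb2 chr14:75242037-75242336 (plus), that of Hrg chr16:22950822-22951121 (plus) and that of Klkb1 chr8:45294786-45295085 (minus).
Kng2: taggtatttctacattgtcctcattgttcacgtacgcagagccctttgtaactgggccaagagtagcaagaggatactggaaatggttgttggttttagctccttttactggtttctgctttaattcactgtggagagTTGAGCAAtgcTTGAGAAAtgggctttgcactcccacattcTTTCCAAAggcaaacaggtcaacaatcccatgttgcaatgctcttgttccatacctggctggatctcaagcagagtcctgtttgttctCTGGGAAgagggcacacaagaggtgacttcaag
Pros1: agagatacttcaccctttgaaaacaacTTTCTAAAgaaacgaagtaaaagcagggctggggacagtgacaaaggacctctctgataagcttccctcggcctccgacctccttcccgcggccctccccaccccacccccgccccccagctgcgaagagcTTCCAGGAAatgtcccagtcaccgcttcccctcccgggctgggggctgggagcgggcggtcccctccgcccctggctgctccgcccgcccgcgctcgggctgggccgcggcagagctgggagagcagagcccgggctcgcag
Cpb2: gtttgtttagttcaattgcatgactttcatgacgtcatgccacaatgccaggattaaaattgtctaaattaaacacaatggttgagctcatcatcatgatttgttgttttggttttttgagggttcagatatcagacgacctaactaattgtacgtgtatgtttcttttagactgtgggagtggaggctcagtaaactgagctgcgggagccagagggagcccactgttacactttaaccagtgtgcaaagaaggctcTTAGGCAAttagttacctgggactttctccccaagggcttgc
Hrg: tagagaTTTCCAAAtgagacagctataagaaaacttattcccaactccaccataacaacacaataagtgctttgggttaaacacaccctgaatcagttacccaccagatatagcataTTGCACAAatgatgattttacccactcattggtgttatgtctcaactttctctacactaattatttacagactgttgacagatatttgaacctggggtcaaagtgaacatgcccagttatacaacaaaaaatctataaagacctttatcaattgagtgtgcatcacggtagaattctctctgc
Klkb1: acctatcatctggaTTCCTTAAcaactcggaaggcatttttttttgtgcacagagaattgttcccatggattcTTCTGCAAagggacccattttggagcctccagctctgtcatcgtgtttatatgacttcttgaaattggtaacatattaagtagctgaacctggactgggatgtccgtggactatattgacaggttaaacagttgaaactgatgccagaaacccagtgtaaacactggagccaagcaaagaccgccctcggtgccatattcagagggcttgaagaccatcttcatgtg

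The C/EBP pattern occurred 3 times in the Kng2 promoter, 2 times in those of Hrg and Klkb1, and 1 time in those of Pros1 and Cpb2. It was thus present in the 4 higher genes shown and in the 1 lower gene shown. The other higher genes had no entry. Over all members it was found in 19 of 29 entries (some genes have more than 1), or 65.5%, compared with 40.7% of all 32851 promoters of the same length and 32.8% of those of tested genes. The STAT3 pattern, found above in Pros1 at base -92 from the start, was in 2 of 29 member entries (6.90%, against 4.81% of all promoters). The IL-6 response element, found above in Kng2 at base 18, was in 4 of 29 (13.8%, against 11.1%). The HNF1 pattern GTTAAT was in 3 of 29 (10.3%, against 7.10%) and the HNF4A pattern CAAAGTNCA in 2 of 29 (6.90%, against 1.41%). A match is a run of letters, not a binding site.

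Of the 11 anticoagulant genes 3 were called higher and 2 lower than Con at 8 weeks, and 6 were not called. Of all genes 5.87% were called higher and 35.3% lower. The 3 include Serpina5, which had to differ. Serpina10 encodes the protein Z-dependent inhibitor of factor Xa. At 8 weeks it ran between 223 and 338 TPM with a median of 291 TPM in CAC livers, against 108, 134, 136, 138 and 141 TPM in NCAC livers and 104, 113, 117, 121 and 125 TPM in Con livers. No CAC liver overlapped another group, and the ratio of the CAC mean to the Con mean was 2.41 (1.25 ± 0.11, adjusted p = 2.67e-12). It had the largest 4-week difference of the 35 genes, 0.98 against Con (adjusted p = 1.37e-07), when it stood at 160.5, 210.0, 220.0, 235 and 259 TPM in CAC livers against 96.8, 98.1, 114, 115 and 117 TPM in Con livers.

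Pros1 encodes protein S, the cofactor of activated protein C. It stood at 42.3 to 74.9 TPM with a median of 64.0 TPM in CAC livers at 8 weeks, against 23.999, 26.7, 30.1, 32.0 and 32.6 TPM in NCAC livers and 15.96, 22.4, 24.2, 26.5 and 32.4 TPM in Con livers. All CAC livers were again above the rest. The difference was 1.33 ± 0.13 against Con and 1.06 ± 0.13 against NCAC (adjusted p = 1.71e-11 and 1.06e-08). At 4 weeks the call against Con (0.65, adjusted p = 0.00322) was lost in the fit within that week, and the call against NCAC (0.81, adjusted p = 0.000231) without the other-tissue libraries.

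Serpina5, the protein C inhibitor, was close to 0 in most livers and passed the low-value filter only through 2 CAC livers at 6 weeks and 5 at 8 weeks, so it had to differ and its call supports nothing by itself. At 8 weeks it ran between 0.258 and 6.00 TPM with a median of 1.81 TPM in CAC livers, against 0.0735, 0.0747, 0.0756, 0.196 and 0.290 TPM in NCAC livers and 0.0676, 0.340, 0.358, 0.440 and 0.499 TPM in Con livers. In 6 of the 7 CAC livers it was above every other liver of that week, and the exception was replicate 3. The difference from Con was 1.25 ± 0.23 (adjusted p = 1.96e-05).

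Serpinc1 encodes antithrombin, the main plasma inhibitor of thrombin and factor Xa. It ran between 553 and 849 TPM with a median of 586 TPM in CAC livers at 8 weeks, against 665, 716, 718, 751 and 799 TPM in NCAC livers and 724, 728, 734, 746 and 835 TPM in Con livers. Of the 7 CAC livers 6 lay below every Con liver, while replicate 3 lay above all of them. With TPM as deposited Serpinc1 was lower than Con by 0.26 (adjusted p = 0.00501) and lower than NCAC by 0.22 (adjusted p = 0.017), but after median-of-ratios rescaling these differences were -0.01 and 0.09 and neither was called. The call against NCAC was also lost without NCAC replicate 3. Its call against Con at 6 weeks (-0.24, adjusted p = 0.0417) was lost after either rescaling and without any of CAC replicates 1, 2, 4 and 5 or Con replicates 1, 2 and 4.

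Adamts13 encodes the protease that trims von Willebrand factor. It was low in all livers, at 0.564 to 1.18 TPM with a median of 0.805 TPM in CAC livers at 8 weeks, against 1.11, 1.23, 1.71, 1.99 and 2.11 TPM in NCAC livers and 1.58, 1.58, 1.78, 2.07 and 2.52 TPM in Con livers. Every CAC liver lay below every Con liver. Adamts13 fell by 0.70 against Con (adjusted p = 0.000275), and this call stood after both rescalings. Its fall of 0.55 against NCAC (adjusted p = 0.00302) was lost under quantile normalization and without the other-tissue libraries, and its 6-week call against Con (-0.52, adjusted p = 0.0259) was lost without any 1 of CAC replicates 1 and 4 or Con replicates 3, 4 and 5. Of 7 markers of stellate cells, which are known to make this protease, and fibroblasts, none was called at 8 weeks with TPM as deposited, 1 was higher after median-of-ratios rescaling, 2 were higher after quantile normalization and 1 was lower without the other-tissue libraries. Of all 12160 genes 714 were higher and 4291 lower with TPM as deposited. The counts were 1556 and 1690 by median of ratios, 1782 and 1633 by quantiles, and 617 and 4230 without the other-tissue libraries.

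The other anticoagulants gave few calls. Thbd, the endothelial thrombin receptor thrombomodulin, ran between 1.05 and 3.69 TPM with a median of 2.52 TPM in CAC livers at 8 weeks, against 0.541, 1.04, 1.195, 1.65 and 6.85 TPM in NCAC livers and 0.959, 1.49, 2.58, 2.67 and 3.13 TPM in Con livers. The ranges overlapped and no difference was called at 8 weeks; at 6 weeks Thbd was higher than NCAC (0.73, adjusted p = 0.0426), a call lost on leaving out any of CAC replicates 1, 2 and 5 or any of the 5 NCAC livers. Serpind1 (heparin cofactor II), Proc (protein C), its endothelial receptor Procr, Proz (protein Z) and Tfpi (the tissue factor pathway inhibitor) were not called in any comparison with TPM as deposited, with 8-week differences from Con between -0.32 for Procr and 0.01 for Proz. Serpind1 came nearest among the abundant ones, at 487 ± 44.5 TPM in CAC livers (SD, n = 7) and 550.3 ± 48.9 TPM in Con livers (SD, n = 5), and was called lower without Con replicate 2 (-0.23) or without the other-tissue libraries (-0.23), though its difference was 0.08 by median of ratios and 0.03 by quantiles.

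In the extrinsic and common pathway tissue factor was lower than Con at 8 weeks under each scaling, whereas the number of the 5 members called higher was 1 with TPM as deposited, 4 with quantile-normalized values and 2 after median-of-ratios rescaling. Of all 12160 genes 714, 1782 and 1556 were called higher under these scalings, in the same order. F3 encodes tissue factor, the membrane receptor that starts clotting with factor VII. It ran between 1.24 and 2.91 TPM with a median of 1.65 TPM in CAC livers at 8 weeks, against 2.51, 3.60, 4.67, 4.88 and 5.62 TPM in NCAC livers and 2.90, 3.20, 3.44, 3.95 and 4.28 TPM in Con livers. Of the 7 CAC livers 6 lay below every Con liver, and the other lay between the lowest and the next. F3 fell by 0.65 against Con (adjusted p = 0.00627) and by 0.83 against NCAC (adjusted p = 0.00051). At 6 weeks it stood at 1.21 to 3.40 TPM in CAC livers, 2.55 to 5.16 TPM in NCAC livers and 2.28 to 4.20 TPM in Con livers. The call against Con at that week (-0.60, adjusted p = 0.0419) was lost after either rescaling and without any of CAC replicates 1, 2, 3 and 5 or Con replicates 1, 2 and 5, and the call against NCAC (-0.68, adjusted p = 0.0228) without CAC replicate 1 or 3 or NCAC replicate 5.

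F7 encodes factor VII, the protease that pairs with tissue factor. It ran between 131 and 178 TPM with a median of 151 TPM in CAC livers at 8 weeks, against 130.5, 131, 140.0, 147 and 159 TPM in NCAC livers and 118, 120.2, 128, 128 and 156 TPM in Con livers. The ranges overlapped. The F7 call against Con (0.24, adjusted p = 0.0233) was lost without CAC replicate 3, Con replicate 1 or Con replicate 2 and without the other-tissue libraries (0.20), while it stood under both rescalings (0.49 by median of ratios, 0.60 by quantiles). The difference from NCAC of 0.11 was not called. At 6 weeks F7 was higher than Con by 0.35 (adjusted p = 0.00773). F2, the gene of prothrombin, stood at 729 to 865 TPM with a median of 801 TPM in CAC livers at 8 weeks, against 651, 674, 723, 732 and 799.9 TPM in NCAC livers and 692, 699.8, 706, 716 and 792 TPM in Con livers. Of the 7 CAC livers 4 lay above every other liver. F2 was called against NCAC (0.17, adjusted p = 0.0424) and against Con at 6 weeks (0.26, adjusted p = 0.0127), but not against Con at 8 weeks (0.15, adjusted p = 0.0689) unless rescaled (0.40 by median of ratios, 0.31 by quantiles). The call against NCAC was lost on leaving out any of CAC replicates 3, 4, 6 and 7 or NCAC replicates 1, 2, 4 and 5. F10 (factor X) and F5 (its cofactor factor V) had no call in any comparison with TPM as deposited, with 8-week differences from Con of 0.00 and 0.20. Under quantile normalization both were called higher than Con at 8 weeks (0.27, adjusted p = 0.00392, and 0.55, adjusted p = 0.0491), and without the other-tissue libraries F5 turned to -0.28 and was not called.

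Fibrin is cross-linked by factor XIII, whose carrier subunit is encoded by F13b and whose catalytic subunit is encoded by F13a1. F13b ran between 125 and 187 TPM with a median of 149 TPM in CAC livers at 8 weeks, against 175, 179, 181, 184 and 210.2 TPM in NCAC livers and 134, 182, 206, 216 and 235 TPM in Con livers. Most CAC livers were lower than most Con livers, but Con replicate 2 fell inside the CAC range. F13b was called lower than Con at 8 weeks with TPM as deposited (-0.35, adjusted p = 0.0377), yet it was at 0.01 after quantile normalization, and the call was lost on leaving out any of CAC replicates 1, 2, 5 and 6 or Con replicates 1, 3, 4 and 5. Against NCAC the 8-week difference of -0.30 missed the threshold (adjusted p = 0.0642). At 6 weeks, where no CAC liver reached the lowest Con liver, the fall was 0.55 (adjusted p = 0.00772), lost only without CAC replicate 1 among the leave-one-out fits. F13a1, a product of macrophages and platelets, averaged 0.277 ± 0.140 TPM in CAC livers (SD, n = 7) and 0.331 ± 0.361 TPM in Con livers (SD, n = 5) at 8 weeks.

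**Figure D3:**
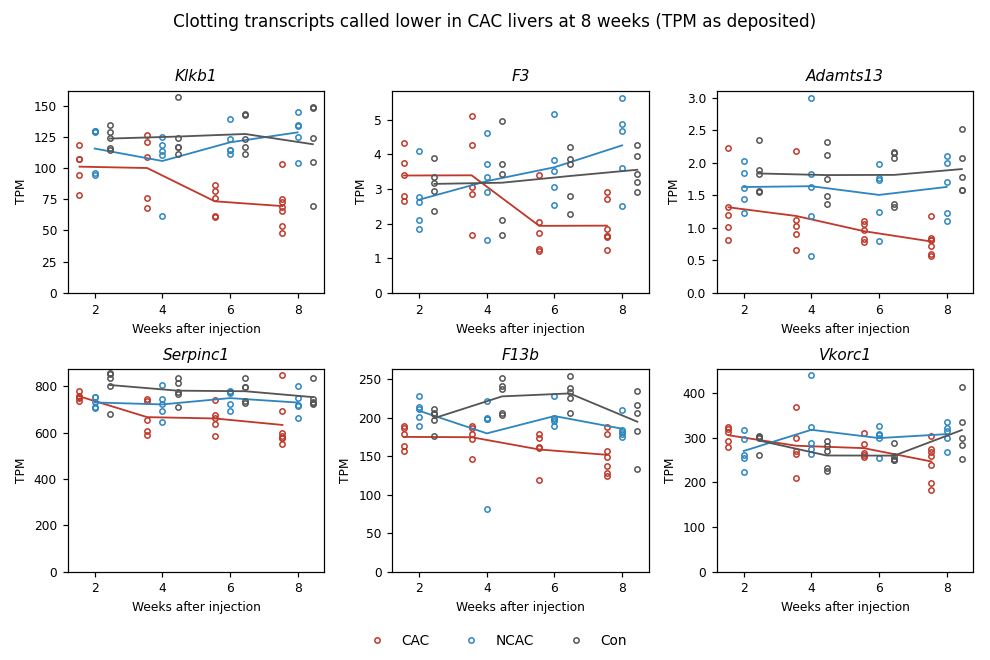
TPM of the 6 genes called lower in CAC than in Con livers at 8 weeks, by week after injection, with each circle 1 liver and lines through the group means. Klkb1, F3 and Adamts13 stay lower after rescaling; the difference of Serpinc1 is -0.01 after median-of-ratios rescaling, and that of F13b turns to 0.01 and that of Vkorc1 to -0.01 under quantile normalization.

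Several clotting factors need vitamin K to be carboxylated, by the enzyme encoded by Ggcx and with vitamin K recycled by that of Vkorc1. Vkorc1 ran between 183 and 303 TPM with a median of 259.9 TPM in CAC livers at 8 weeks, against 268, 299.5, 316, 321 and 335 TPM in NCAC livers and 252, 284, 299.6, 335 and 414 TPM in Con livers. Only 3 of the 7 CAC livers lay below every Con liver. With TPM as deposited it was lower than Con by 0.36 (adjusted p = 0.0113) and than NCAC by 0.33 (adjusted p = 0.0158), but under quantile normalization the differences were -0.01 and 0.02, and the calls were lost without Con replicate 2 and without CAC replicate 6. Without the other-tissue libraries neither was called (-0.19 and -0.27). Ggcx ran between 19.3 and 32.6 TPM with a median of 24.3 TPM in CAC livers at 8 weeks, against 24.7, 29.6, 32.5, 36.3 and 40.2 TPM in NCAC livers and 22.0, 23.2, 27.6, 31.1 and 34.98 TPM in Con livers. It overlapped both groups and was called against NCAC alone (-0.41, adjusted p = 0.0308), a call lost without CAC replicate 1 or 6, without NCAC replicate 1 or 5 and after either rescaling.

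**Figure D4:**
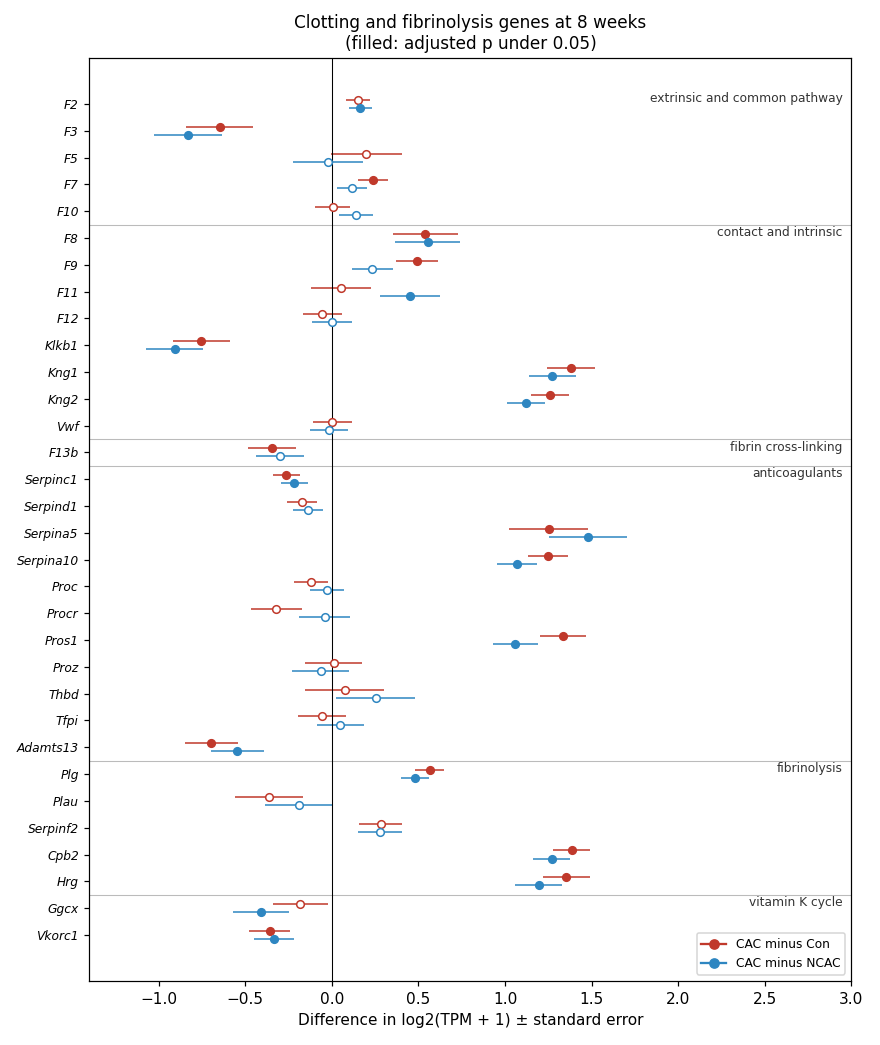
Difference in log2(TPM + 1) with its standard error for each of the 32 tested genes at 8 weeks, CAC minus Con in red above CAC minus NCAC in blue, grouped by role, with filled points at an adjusted p under 0.05. Kng1, Kng2, Hrg, Cpb2, Serpina10, Pros1 and Serpina5 lie beyond 1 in both comparisons, and Klkb1, F3 and Adamts13 lie below -0.5 in both. Serpina5 passed the filter through CAC livers alone and had to differ.

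The time course was tested as a linear trend of CAC minus Con over the 4 weeks. Of the 32 members 9 had a rising trend and 1 a falling one, where 3.35% and 12.3% of all genes did. One of the 9 was Serpina5, whose passing of the filter through late CAC livers fixed its direction. The slope per 2 weeks was 0.42 for Hrg, Pros1 and Cpb2, 0.35 for Kng2, 0.34 for Kng1, 0.29 for Serpina10 and 0.19 for Plg, and -0.29 for F3. That of F7 (0.11, adjusted p = 0.0499) was lost in most leave-one-out fits, and that of F3 without the other-tissue libraries. Summed over the 35 genes, CAC livers held 12283 ± 1361 TPM at 2 weeks, 14374 ± 1198 TPM at 4 weeks, 17006 ± 1229 TPM at 6 weeks (SD, n = 5 each) and 17990.1 ± 2032 TPM at 8 weeks (SD, n = 7). The corresponding sums at 8 weeks were 11564 ± 811 TPM in NCAC livers and 11177 ± 529 TPM in Con livers (SD, n = 5 each). A few abundant genes weigh most in these sums. Kng1 alone averaged 4574 TPM in CAC and 1731 TPM in Con livers at 8 weeks. The median log2 difference of the tested members was only 0.03 at that week. Between 6 and 8 weeks no member's difference from Con changed by a called amount, and no gene at all was called (0% in each direction). An unadjusted p under 0.05 was found in 7 of the 32 members and in 2189 of all 12160 genes. Without CAC replicate 3 at 8 weeks 2 members were called, and the share of all genes in that fit is not given here.

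NCAC livers resembled Con livers in that no member was called at any week in the limma fit of all 12 groups. A separate fit of the 2-week libraries alone called 2 members, and the share of all genes called in it is not given here. The fit of all 12 groups called 0% of all genes in each direction at 2, 4 and 6 weeks, and 0.0247% higher and 0.156% lower at 8 weeks. At an unadjusted p under 0.05 there were 4, 5, 1 and 1 of the 32 members at 2, 4, 6 and 8 weeks. Of all 12160 genes there were 1298, 934, 1094 and 1330. For the 7 genes that were higher in CAC livers, the NCAC minus Con difference at 8 weeks ran from 0.08 for Plg to 0.28 for Pros1. The widest NCAC differences of any member were 0.56 for F11 at 6 weeks and -0.53 for F5 at 4 weeks, with adjusted p of 0.535 and 0.617. A missed threshold does not show that the groups were alike. At 2 weeks Plg, Serpinf2, Serpind1, Ggcx and Vwf were lower in every NCAC liver than in every Con liver, as were 4.63% of all genes, and none of the members was wholly higher (1.28% of all genes). At 6 weeks Proz alone was wholly lower (3.08% of all genes), and no member was wholly higher (0.206% of all genes).

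The scaling moved the members' calls at 8 weeks, when the median gene was at -0.21 in CAC against Con with TPM as deposited, at -0.00 after median-of-ratios rescaling and at 0.01 after quantile normalization. With TPM as deposited 714 of all 12160 genes were called higher and 4291 lower. The members called higher and lower were 13 and 3 by median of ratios, where 1556 and 1690 of all genes were. They were 16 and 3 by quantiles, where 1782 and 1633 of all genes were. Serpina5, which had to differ, is among the higher members under each scaling. The 7 consistently higher genes were called at 8 weeks in all 20 alternatives tried. Their lowest difference in any alternative ran from 0.29 for Plg to 1.32 for Cpb2. Klkb1, F3 and Adamts13 were the members called lower after both rescalings, where Serpinc1, F13b and Vkorc1 ran between -0.11 and 0.01 and were not called.

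**Figure D5:**
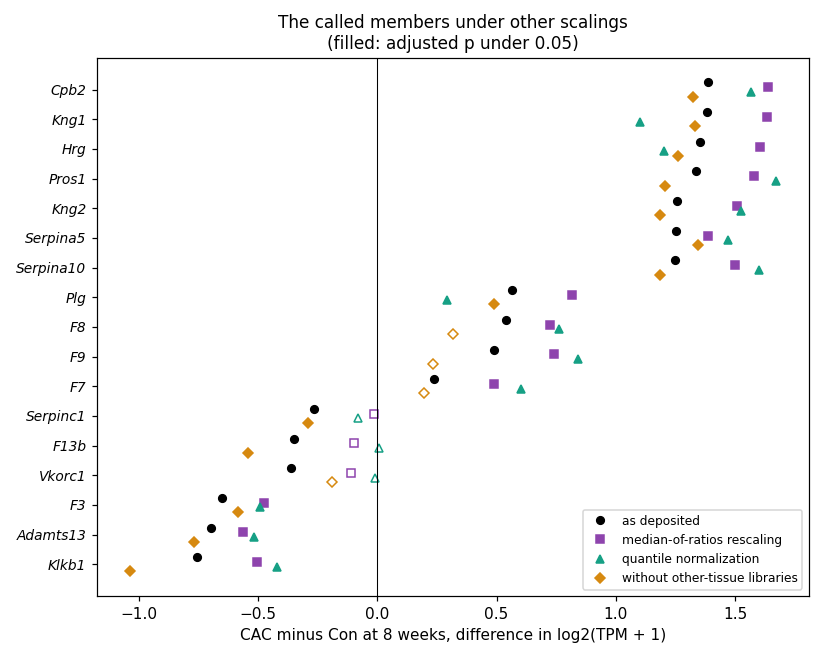
CAC minus Con at 8 weeks for the 17 called genes, with TPM as deposited (circles), after median-of-ratios rescaling (squares), after quantile normalization (triangles) and without the other-tissue libraries (diamonds), filled where the adjusted p was under 0.05. The 7 consistently higher genes stay filled throughout; Serpina5 does too, but it passed the filter through CAC livers alone and had to differ. F7, F8 and F9 are open without the other-tissue libraries, and Serpinc1, F13b and Vkorc1 are open after rescaling, with F13b at 0.01 under quantile normalization.

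Other genes of the clotting system put these changes in context. The fibrinogen chains, the substrate of thrombin, were all called higher than Con at 4, 6 and 8 weeks; at 8 weeks Fga was at 10868 ± 3592 TPM in CAC livers (SD, n = 7) and 2682 ± 373 TPM in Con livers (SD, n = 5), a difference of 1.95, and Fgg and Fgb differed by 1.85 and 1.77. Of 14 tested regulators of fibrinolysis and plasma proteases 5 were higher and 4 lower than Con at 8 weeks, where 5.87% and 35.3% of all genes were; the counts were 6 and 2 with quantile-normalized values, 7 and 1 by median of ratios, and 3 and 3 without the other-tissue libraries. Among them were the C1 inhibitor Serping1 (0.76), C4bp, which carries protein S in plasma in humans (0.58), and the plasminogen receptor subunit Anxa2 (-0.82). Of 12 genes for secretion, processing and clearance of clotting factors 2 were higher and 2 lower, against 6 and 1 with quantile-normalized values and 5 and 1 by median of ratios. Of all 12160 genes 1782 were higher and 1633 lower with quantile-normalized values, and 1556 and 1690 by median of ratios. Without the other-tissue libraries 617 were higher and 4230 lower. Stab2, a scavenger receptor of the liver endothelium, was at 0.69, Pcsk6 at -0.72 and the asialoglycoprotein receptor subunit Asgr2 at -0.34, which turned to 0.05 under quantile normalization. Of the other vitamin K-dependent genes 3 of 7 were tested, and 1 was higher (Gas6, 1.23) and 1 lower (Prrg2, -0.86), while Mgp was not called (-0.10, and 0.12 after either rescaling).

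Among 14 liver transcription factors 2 were higher and 2 lower at 8 weeks (3 and 2 by median of ratios, 4 and 2 by quantiles), including Stat3 at 42.2 ± 5.34 TPM in CAC livers (SD, n = 7) and 23.0 ± 3.53 TPM in Con livers (SD, n = 5), Cebpd (1.81) and Cebpa (-1.12). These counts and those below stand beside 5.87% of all genes higher and 35.3% lower with TPM as deposited. Of all 12160 genes 1556 were higher and 1690 lower by median of ratios, and 1782 and 1633 by quantiles. Without the other-tissue libraries 617 were higher and 4230 lower. Of 13 protease-activated receptor and platelet genes 4 were tested and 3 were higher, namely Itga2b (1.46), Itgb3 (1.44) and F2r (0.43, not called without the other-tissue libraries). The 6 megakaryocyte and platelet markers summed to 7.05 to 11.4 TPM in CAC livers at 8 weeks, 1.65 to 6.37 TPM in NCAC livers and 2.14 to 5.20 TPM in Con livers, with none at 0. Only 2 of the 6 were tested. Itga2b, also counted above, was called higher than Con, with means of 5.13 TPM in CAC livers and 1.10 TPM in Con livers. Pf4 was not called (0.38, adjusted p = 0.16), though both were called under quantile normalization and without the other-tissue libraries. The part of platelets in any member's level was not tested. The 12 endothelial markers, from cells that make F8, Vwf and Thbd, summed to 126 to 307 TPM in CAC livers, 111 to 167 TPM in NCAC livers and 116 to 196 TPM in Con livers, with 4 called higher than Con (2 without the other-tissue libraries), 1 lower and none at 0, and their part in the F8 result was not tested. The 11 macrophage markers summed to 202 to 747 TPM in CAC livers, 306 to 465 TPM in NCAC livers and 557 to 762 TPM in Con livers, with 6 called lower than Con (4 after either rescaling), none higher and none at 0. Of the 9 hepatocyte markers 1 was higher and 0 lower, against 3 and 0 by median of ratios, 2 and 0 by quantiles, and 1 and 1 without the other-tissue libraries.

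The level of a member in Con livers divided the list. In the 20 Con livers 20 members averaged at least 100 TPM, 3 lay between 10 and 100 TPM and 12 were under 5 TPM, with 6 of these under 1 TPM. After Plg the highest were Kng1 at 1707 ± 231 TPM and Hrg at 1255 ± 136 TPM (SD, n = 20), so 3 of the 7 consistently higher genes were the 3 most abundant at baseline, while Pros1 at 28.0 ± 3.87 TPM was the least abundant of the 7. Neighbours in this order often lay within 1 SD of each other, as Pros1 did with Ggcx at 27.6 ± 5.04 TPM. The low members were those known as products of endothelial or other cells (F3, Tfpi, F8, Thbd, Procr, Vwf, Plau, Plat, Plaur, F13a1), together with Adamts13 and Serpina5.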

How the data were processed

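Liver RNA was extracted with Trizol, made into TruSeq stranded mRNA libraries and sequenced on an Illumina NovaSeq, per the labels' protocols. The authors deposited a table of TPM values per gene symbol for all 62 libraries; mm10 is named in the submitters' processing notes, while no source used here names an aligner, a quantifier or a read number. All columns were used (0 unused).

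TPM values were analysed as log2(TPM + 1) with limma 3.58.1 in R 4.3.3, fitting 12 group means over the 62 libraries with a trended prior variance. The 12160 genes at 1 TPM or more in at least 5 libraries were tested, with Benjamini-Hochberg adjustment over all of them and a threshold of 0.05. The trend of CAC minus Con used weights of -3, -1, 1 and 3, so 1 unit of slope is 1 log2 unit per 2 weeks. Adjusted p-values throughout are from this limma fit. Tables were handled in Python 3.11.15 with pandas 2.3.3, and the scripts were tested on simulated data. The alternatives were a pseudocount of 0.1, no filter, a mean of at least 5 TPM, median-of-ratios rescaling, quantile normalization, a fit within each week, leaving out the 12 other-tissue libraries, a replicate block and leaving out each replicate.

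Per-animal values at 8 weeks are given for the 3 members of each role with the smallest p in CAC against Con, for F3, Plg, Serpinc1, Thbd, F8 and Vwf whatever their result, and for members called elsewhere; of each other list of clotting-related genes the 3 with the smallest p are named. The members, lists and tests were chosen with earlier results of these data known. The hepatocyte marker Tf was not in the table under that symbol. No 2 libraries were identical, and the highest correlation between libraries was 0.990. Samples with the same replicate number had correlated deviations of -0.37 to 0.36, and in no comparison did all 5 pairs exceed 0.1, so numbers were not treated as pairs.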

Additional observations from a re-analysis of the deposited data

Results flagged for a closer look

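Of 228 sets of 4 to 10 animals examined for the 19 genes described animal by animal, 25 held 1 animal set far apart from the rest of its group, where chance gives about 1 in 20. Among the consistently higher genes these were Hrg at 1409 TPM in CAC replicate 3 at 8 weeks and 1766 TPM in NCAC replicate 4 at 6 weeks, Serpina10 at 220.4 TPM in CAC replicate 3 at 2 weeks and 108 TPM in NCAC replicate 4 at 8 weeks, and Pros1 at 66.0 TPM in CAC replicate 2 at 4 weeks. They also included Kng1 at 1406 TPM in NCAC replicate 2 at 2 weeks, Cpb2 at 524 TPM in NCAC replicate 3 at 2 weeks and Plg at 2386 TPM in Con replicate 1 at 6 weeks.

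Among the other genes, F13b stood apart at 81.1 TPM in NCAC replicate 4 at 4 weeks, 228 TPM in NCAC replicate 3 at 6 weeks and 210.2 TPM in NCAC replicate 4 at 8 weeks, and Klkb1 at 61.5 TPM in NCAC replicate 4 and 157 TPM in Con replicate 2 at 4 weeks. Con replicate 3 at 8 weeks stood apart in F7 at 156 TPM, F2 at 792 TPM and Serpinc1 at 835 TPM. Ggcx did so at 32.0 TPM in CAC replicate 3 at 6 weeks and 32.6 TPM in CAC replicate 5 at 8 weeks, and Vkorc1 at 260.5 TPM in Con replicate 1 at 2 weeks and 287 TPM in Con replicate 4 at 6 weeks. Thbd did so at 6.85 TPM in NCAC replicate 5 at 8 weeks and 3.53 TPM in Con replicate 5 at 6 weeks. Serpina5, near 0 in most livers, did so at 0.394 TPM in CAC replicate 2 at 2 weeks, 0.736 TPM in CAC replicate 2 at 4 weeks and 0.307 TPM in Con replicate 1 at 2 weeks.

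The difference between CAC and Con livers changed over the weeks for 10 members, tested as a linear trend with limma. Of these 9 rose and 1 fell, where 3.35% and 12.3% of all genes did. Per 2 weeks the slope was 0.42 for Hrg (adjusted p = 7.15e-06), 0.42 for Pros1 (3.88e-06), 0.42 for Cpb2 (5.03e-08), 0.41 for Serpina5 (0.00519), 0.35 for Kng2 (3.88e-06), 0.34 for Kng1 (0.000217), 0.29 for Serpina10 (0.000123), 0.19 for Plg (0.000421), 0.11 for F7 (0.0499) and -0.29 for F3 (0.0238). Serpina5 passed the filter on low values only through CAC livers at 6 and 8 weeks, so its slope had to be positive. The F7 slope was lost in most leave-one-out fits, and the F3 slope without the other-tissue libraries.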

How the results depend on the processing

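Of 794 values recomputed under the other alternatives 701 kept their direction and side of the threshold, 80 lost a call, 9 gained one and 4 reversed. The reversals were F12 in CAC against Con at 8 weeks (0.27 under quantile normalization), F13b in the same comparison (0.0078 under quantile normalization), and, in CAC against NCAC at 8 weeks, Serpinc1 (0.091 after median-of-ratios rescaling) and Vkorc1 (0.023 under quantile normalization). The fit within each week, which takes the spread from that week alone, called 2 members in CAC against Con at 2 weeks and 5 at 4 weeks. It called 3 in CAC against NCAC at 2 weeks and 2 in NCAC against Con at 2 weeks. The shares of all genes called in these fits are not given here, so these counts have no background beside them. Without the other-tissue libraries 4 members were called in CAC against NCAC at 4 weeks, where 3 of the 5 NCAC livers are left out. That count has no share of all genes beside it either. The causes were not tested otherwise.

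Leaving out 1 replicate at a time kept 1315 of 1448 values, while 123 lost a call, 10 gained one and 0 reversed. Members called in CAC against Con ran from 0 to 0, 6 to 8, 12 to 15 and 15 to 18 at 2, 4, 6 and 8 weeks, in CAC against NCAC from 0 to 0, 6 to 7, 9 to 13 and 14 to 18, and in NCAC against Con from 0 to 0 at every week. The trend gave 9 to 12, and the change between 6 and 8 weeks 0 to 2, the 2 arising without CAC replicate 3 at 8 weeks. With the replicate number as a block, 14 members were called in CAC against Con at 8 weeks (10 higher, 4 lower), beside 552 and 3590 of all 12160 genes. In CAC against NCAC at 8 weeks 13 were called (10 higher, 3 lower). For that comparison and for the leave-one-out fits the shares of all genes are not given here. Those counts therefore have no background beside them. The numbers are shared only as numbers, and this is no paired design. Depth is unknown, so values under about 1 TPM carry an unmeasured counting error.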

Other observations

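The stretch of chromosome 16 that holds Hrg, Kng2 and Kng1 continues into the fetuin genes, which were looked at after the values of the clotting genes had been seen. Fetub, a liver-secreted protease inhibitor, averaged 797 ± 71.4 TPM in CAC livers (SD, n = 7), 471 ± 63.1 TPM in NCAC livers and 454 ± 63.3 TPM in Con livers (SD, n = 5 each) at 8 weeks. By limma it was higher than Con by 0.88, 0.77 and 0.82 at 4, 6 and 8 weeks (adjusted p = 9.89e-05, 0.000229 and 8e-06). Ahsg, which encodes the abundant plasma protein fetuin-A, averaged 16374 ± 4252 TPM in CAC livers (SD, n = 7), 12498 ± 1561 TPM in NCAC livers and 15664 ± 1488 TPM in Con livers (SD, n = 5 each) at 8 weeks, and was not called against Con (0.02, adjusted p = 0.933) but was called higher than NCAC (0.35, adjusted p = 0.0437).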
